A study of Mus musculus with 8 samples.

Results

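Expression of 10 genes that mark lipid-associated macrophages was followed across the adipose tissue of obese mice of 3 genotypes. The members are Mmp12, Trem2, Gpnmb, Spp1, Lipa, Cd9, Cd63, Lgals3, Plin2 and Clec7a, and every array probe annotated to one of these symbols was taken. Of the 10, 9 had a probe, out of 16593 annotated genes on the array, and Spp1, which encodes osteopontin, was not analysed here. The 9 genes had 17 probes: 6 genes had 1 probe each, Gpnmb and Clec7a had 4 each and Cd63 had 3. The samples were wild type (WT, 2 arrays, mice of 24 weeks), IL6 knock-out (IL6_KO, 3 arrays, 25 weeks), in which the gene of the cytokine IL-6 is disrupted, and sgp130Fc transgenic (3 arrays, 26 weeks). The transgene encodes soluble gp130 joined to an antibody Fc part, which binds IL-6 already held by its soluble receptor and so blocks IL-6 trans-signalling. All mice were on a C57Bl6 background, were obese after high-fat feeding and had fasted for 5 h. Age moves with genotype and cannot be told apart from it. The depot, the sex and the promoter of the transgene were not used here, and nothing states that the numbered replicates are separate animals, so p-values describe the spread between these samples.

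Lipid-associated macrophages gather around dying fat cells in obese adipose tissue, take up the lipid these cells release and break it down in their lysosomes. Trem2 is a surface receptor that senses lipids and signals through the adaptor Tyrobp, and mice that lack it form few such cells. The other members cover the steps that follow: Clec7a is the pattern receptor dectin-1, Lipa is the acid lipase of lysosomes, Plin2 coats lipid droplets, Cd63 and Cd9 are tetraspanins of endosomes and the cell surface, Gpnmb is a glycoprotein of phagosomes and lysosomes, Lgals3 is a lectin that binds damaged lysosomes, and Mmp12 is a secreted elastase. None of these genes is restricted to 1 cell type: Cd9, Cd63, Lgals3 and Plin2 are also expressed by fat cells, fibroblasts or endothelium.

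The windows around the start sites are shown for Mmp12, the 1 member that passed a test, for the receptors Trem2 and Clec7a and for Gpnmb, whose tested probes were all higher in IL6_KO than in WT without overlap, and for Lgals3, whose probe overlapped between all groups. Each runs 5′ to 3′ along the gene, from 250 bases before to 50 bases after the RefSeq start in GRCm38.p6, and capitals mark matches, on either strand, to 4 short motifs: GAGGAA (the core bound by the myeloid factor Spi1), TGANTCA (bound by AP-1 factors), CACGTG and CATGTG (bound by the MiT/TFE factors of lysosomal genes). For Mmp12 the second of its 2 start sites is shown, and for Clec7a the first of 2 that overlap.
Mmp12, chr9:7347124-7347423, + strand: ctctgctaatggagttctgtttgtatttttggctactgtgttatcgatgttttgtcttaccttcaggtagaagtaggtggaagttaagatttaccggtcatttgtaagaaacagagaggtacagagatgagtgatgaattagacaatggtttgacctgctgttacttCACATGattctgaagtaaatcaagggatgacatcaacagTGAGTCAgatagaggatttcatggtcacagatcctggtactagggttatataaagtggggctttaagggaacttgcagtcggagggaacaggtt
Trem2, chr17:48346151-48346450, + strand: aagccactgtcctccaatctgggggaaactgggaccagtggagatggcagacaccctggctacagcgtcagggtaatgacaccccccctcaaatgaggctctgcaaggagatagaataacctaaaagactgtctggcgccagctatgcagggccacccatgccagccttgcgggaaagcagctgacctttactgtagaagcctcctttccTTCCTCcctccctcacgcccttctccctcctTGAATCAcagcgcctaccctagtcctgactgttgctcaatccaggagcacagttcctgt
Clec7a, chr6:129472730-129473029, - strand: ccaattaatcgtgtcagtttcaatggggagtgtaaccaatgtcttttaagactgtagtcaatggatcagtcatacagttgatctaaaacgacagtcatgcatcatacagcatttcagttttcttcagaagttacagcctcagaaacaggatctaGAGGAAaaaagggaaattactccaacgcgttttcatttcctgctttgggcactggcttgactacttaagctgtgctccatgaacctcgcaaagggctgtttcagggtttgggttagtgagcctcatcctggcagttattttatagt
Gpnmb, chr6:49036268-49036567, + strand: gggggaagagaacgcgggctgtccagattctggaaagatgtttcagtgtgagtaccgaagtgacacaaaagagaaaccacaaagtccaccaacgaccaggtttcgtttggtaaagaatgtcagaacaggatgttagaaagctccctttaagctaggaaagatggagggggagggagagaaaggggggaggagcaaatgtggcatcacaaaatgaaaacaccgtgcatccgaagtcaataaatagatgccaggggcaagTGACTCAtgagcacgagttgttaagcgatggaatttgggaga
Lgals3, chr14:47373610-47373909, + strand: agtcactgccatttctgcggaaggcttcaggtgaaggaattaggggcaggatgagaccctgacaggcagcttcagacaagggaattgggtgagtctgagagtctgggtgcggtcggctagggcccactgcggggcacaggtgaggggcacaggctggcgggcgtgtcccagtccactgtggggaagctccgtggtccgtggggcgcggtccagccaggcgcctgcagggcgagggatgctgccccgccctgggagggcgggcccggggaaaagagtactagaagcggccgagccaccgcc
The Mmp12 window holds TGAGTCA at position -44 and CACATG, the reverse complement of CATGTG, at -83, counted from the start site. The Trem2 window holds TGAATCA at -9 and TTCCTC, the reverse complement of GAGGAA, at -40. The Clec7a window holds GAGGAA at -96, the Gpnmb window holds TGACTCA at 9, and the Lgals3 window holds none of the 4. Over all 13 windows of the 10 genes, GAGGAA was found in 7, against 28.3% of 32851 windows of mouse genes. The 2 overlapping Clec7a windows hold the same match, and by gene it was found in 6 of 10. TGANTCA was found in 3, against 7.81%, CATGTG in 2, against 14.2%, and CACGTG in 1, that of Plin2, against 7.15%. A match is a run of letters and was not tested as a binding site.

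All values below are log2 intensities after background correction and quantile normalization, so a difference of 1 is a doubling. A probe counted as above background at a detection p under 0.05, and 16 of the 17 member probes met this on at least 2 arrays and were tested. The exception was a Clec7a probe (ILMN_2770652) seen on 1 array, at 4.57 to 5.29. Median raw intensity lay between 109.1 and 145 per array. IL6_KO replicate 2 stood apart from the rest: its mean correlation with the other arrays over tested probes was 0.944, against 0.964 to 0.973. Some of the results that rest on it are also given without it. The Il6 probe lay at 4.40 and 4.47 in WT, at 5.17, 5.07 and 5.16 in IL6_KO and at 4.78, 4.62 and 4.46 in sgp130Fc, above background on 2 arrays, both IL6_KO. It was no check of the genotype, since where it lies against the disrupted stretch was not determined. Fat cell and macrophage markers were both present: Adipoq, which encodes adiponectin, lay at 12.15 to 13.63 and Adgre1, a surface marker of mouse macrophages, at 11.23 to 12.34.

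In IL6_KO fat, most lipid-associated macrophage genes lay above WT, with Mmp12 the 1 that passed the test over all probes. Where a gene had several probes, its brightest tested probe represents it in counts. Of the 9 genes, 8 had a positive difference from WT (49.8% of 9803 genes did), 1 passed at an adjusted p under 0.05 (0.296% of genes passed in either direction) and 7 lay on every IL6_KO array above both WT arrays (18.9% of genes did). Their median log2 difference was 1.27, against a median of 0.00 over all genes. Without IL6_KO replicate 2 the median was 0.96, and without WT replicates 1 and 2 it was 0.92 and 1.51. The differences without IL6_KO replicate 2 were 1.97 for Mmp12, 1.16 for Trem2, 0.86 for Gpnmb, 1.16 for Lipa and 0.96 for Cd9. They were 0.66 for Cd63, -0.08 for Lgals3, 0.58 for Plin2 and 1.45 for Clec7a. In sgp130Fc fat the same genes lay nearer to WT: 7 had a positive difference (49.2% of genes), 0 passed (0.112% of genes), 4 did not overlap with WT (13.8%), and the median was 0.49. In limma's test 1 of the 9, Lipa, had an unadjusted p under 0.05 and was higher (4.53% of genes), and the median was 0.10 without WT replicate 1. Compared directly, 8 of the 9 genes had a lower mean in sgp130Fc than in IL6_KO (49.8% of genes), 6 without overlap (13% of genes), 1 passed (1.45% of genes) and the median was -0.53. The 2 WT arrays serve in both contrasts with WT. In bulk tissue, fewer cells of a type and less RNA per cell cannot be told apart.

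**Figure D1:**
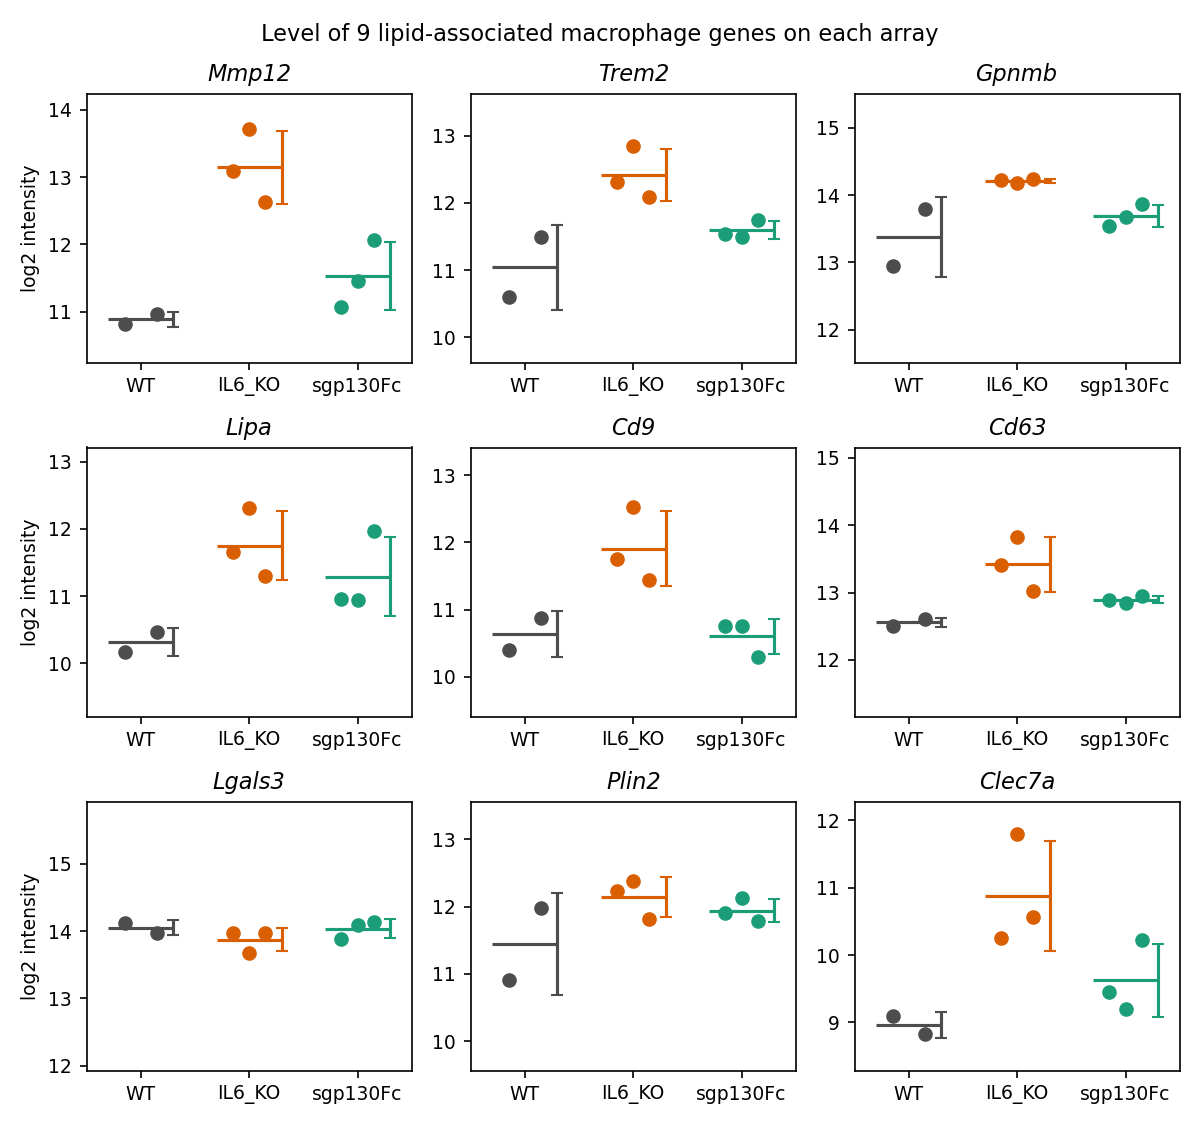
Level of each of the 9 genes (log2 intensity, brightest tested probe) on each array, by genotype; points are arrays, horizontal bars are group means and vertical bars are SD (2 WT, 3 IL6_KO and 3 sgp130Fc arrays), and every panel spans 4 log2 units. The IL6_KO points lie above both WT points for 7 genes and overlap with them for Lgals3 and Plin2.

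Mmp12, the macrophage elastase that degrades elastin and other matrix proteins, had the largest difference among the brightest probes of the 9 genes. It lay at 10.81 and 10.97 on the WT arrays, at 13.09, 13.71 and 12.63 on the IL6_KO arrays and at 11.07, 11.45 and 12.06 on the sgp130Fc arrays. The 3 groups did not overlap, with IL6_KO highest and WT lowest. Mmp12 rose 4.77-fold in IL6_KO over WT (log2 difference 2.26 ± 0.35, SE, adjusted p = 0.0467) and was 3.06-fold lower in sgp130Fc than in IL6_KO (-1.61 ± 0.31, adjusted p = 0.0467). The difference between sgp130Fc and WT, 0.64 ± 0.35, did not pass (adjusted p = 0.688). Both calls lay close to the threshold. That against WT held in 6 of 19 alternative settings, at adjusted p from 0.0191 to 0.187, and that against sgp130Fc in 7 of 19, at 0.00196 to 0.185. Leaving out any array other than IL6_KO replicate 3 ended both, with differences from WT of 1.97 to 2.33 and from sgp130Fc of -1.33 to -1.88.

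Lipa, the enzyme that frees fatty acids and cholesterol from lipids delivered to the lysosome, lay above WT in both modified genotypes. Its levels were 10.17 and 10.46 in WT, 11.66, 12.30 and 11.29 in IL6_KO, and 10.96, 10.95 and 11.97 in sgp130Fc. All 6 arrays of the modified genotypes lay above both WT arrays, and they overlapped with each other. Lipa differed from WT by 1.43 ± 0.37 in IL6_KO (adjusted p = 0.112) and by 0.97 ± 0.37 in sgp130Fc (adjusted p = 0.549). The 2 genotypes differed by -0.46, with a 95% interval of -1.21 to 0.28. The sgp130Fc difference leaned on replicate 3, which lay 1.65 above the WT mean, while replicates 1 and 2 lay 0.64 and 0.63 above it.

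Of the receptors, Trem2 and Clec7a lay highest in IL6_KO. Trem2 lay at 10.59 and 11.49 in WT, at 12.30, 12.84 and 12.09 in IL6_KO and at 11.54, 11.49 and 11.74 in sgp130Fc. The 2 WT arrays stood almost a doubling apart, and the upper one equalled the lowest sgp130Fc array. Its difference from WT was 1.37 ± 0.30 in IL6_KO (adjusted p = 0.0875) and 0.55 ± 0.30 in sgp130Fc (adjusted p = 0.687), and sgp130Fc lay below IL6_KO by -0.82 ± 0.26 (adjusted p = 0.167). Over the 19 alternatives the adjusted p against WT ranged from 0.0364 to 0.300, with 2 passes, from array weights and without IL6_KO replicate 3.

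Clec7a had 3 tested probes. The brightest (ILMN_2653132) lay at 9.09 and 8.82 in WT, at 10.26, 11.80 and 10.56 in IL6_KO and at 9.44, 9.19 and 10.23 in sgp130Fc. On this probe the 3 groups formed an order with no overlap, although the highest sgp130Fc array came close to the lowest IL6_KO array. The second probe (ILMN_1239843) lay at 6.54 and 7.03, at 9.17, 10.44 and 8.74, and at 7.83, 7.32 and 7.24 in the same order of groups, and the third (ILMN_2663258) followed it closely. Differences between IL6_KO and WT were 1.91 ± 0.45, 2.66 ± 0.44 and 2.73 ± 0.46 for the 3 probes (adjusted p = 0.0954, 0.0577 and 0.0577). Against sgp130Fc they were -1.25, -1.99 and -1.87 (adjusted p = 0.166, 0.0524 and 0.0694). Both dimmer probes passed against WT without IL6_KO replicate 2, with differences of 2.17 and 2.22 (adjusted p = 0.0302 for each), and the mean of the 3 probes passed with all arrays (2.44, adjusted p = 0.0487). The brightest probe had adjusted p from 0.0499 to 0.285 with single arrays left out. In sgp130Fc the 3 probes lay 0.66, 0.68 and 0.85 above WT and 0 passed.

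Gpnmb, the phagosomal glycoprotein, had 4 tested probes that pointed the same way in IL6_KO and differed in size. The brightest (ILMN_2648669) lay at 12.95 and 13.79 in WT, at 14.22, 14.18 and 14.24 in IL6_KO and at 13.54, 13.68 and 13.87 in sgp130Fc. Its IL6_KO arrays lay close together, near the highest value that any probe reached after normalization, 14.44, and 36 of 14141 tested probes were brighter. The second probe (ILMN_2614655) had the widest spread of all member probes, at 7.39 and 9.76 in WT, 11.18, 12.45 and 10.39 in IL6_KO and 9.17, 9.10 and 7.63 in sgp130Fc. The brightest probe differed between IL6_KO and WT by 0.84 ± 0.24 (adjusted p = 0.125), and the other probes by 2.76 ± 0.79, 2.14 ± 0.49 and 2.26 ± 0.43 (adjusted p = 0.125, 0.0950 and 0.0693). The mean of the 4 probes differed by 2.00, so the choice of probe moved the value by more than 1.5 times. The first 2 probes also turned on the WT arrays, with differences of 0.42 and 1.57 without WT replicate 1 and of 1.26 and 3.95 without WT replicate 2. Against IL6_KO, the sgp130Fc arrays lay lower on all 4 probes and without overlap, by -0.52, -2.71, -1.66 and -1.80 (adjusted p = 0.257, 0.112, 0.116 and 0.0647). Against WT they differed by 0.06 to 0.49, and their ranges overlapped with WT on all 4.

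The tetraspanins separated the genotypes in different ways. Cd9 lay at 10.39 and 10.88 in WT, at 11.75, 12.53 and 11.44 in IL6_KO and at 10.75, 10.75 and 10.30 in sgp130Fc. The sgp130Fc arrays overlapped with WT, whose replicate 2 lay above all of them, and lay wholly below IL6_KO. Cd9 differed between IL6_KO and WT by 1.27 ± 0.32 (adjusted p = 0.109) and between sgp130Fc and IL6_KO by -1.31 ± 0.28 (adjusted p = 0.0692). The second of these passed in 4 of 19 alternatives, at adjusted p from 0.00755 to 0.198. Between sgp130Fc and WT Cd9 differed by -0.03, with a 95% interval of -0.75 to 0.68.

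Cd63, which marks late endosomes and lysosomes, lay on its brightest probe (ILMN_2653617) at 12.50 and 12.61 in WT, at 13.41, 13.83 and 13.02 in IL6_KO and at 12.88, 12.84 and 12.95 in sgp130Fc. The groups did not overlap, and the sgp130Fc arrays sat between the other 2. The 3 probes of Cd63 differed from WT by 0.86, 0.59 and 1.26 in IL6_KO (adjusted p = 0.114, 0.176 and 0.101) and by 0.33, 0.39 and 0.56 in sgp130Fc (adjusted p = 0.752, 0.687 and 0.687). All 3 differences were positive in both genotypes, with 0 passing, and the third probe overlapped with WT in sgp130Fc.

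Plin2 and Lgals3 stood apart from the other members. Plin2, the coat protein of lipid droplets in macrophages and most other cells, lay at 10.91 and 11.98 in WT, at 12.23, 12.38 and 11.81 in IL6_KO and at 11.91, 12.12 and 11.79 in sgp130Fc. WT replicate 2 lay within the range of both other groups. Its differences from WT were 0.70 ± 0.31 in IL6_KO (adjusted p = 0.241) and 0.49 ± 0.31 in sgp130Fc (adjusted p = 0.728), and they became 0.16 and -0.04 without WT replicate 1.

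Lgals3, which encodes galectin-3, lay at 14.13 and 13.97 in WT, at 13.97, 13.68 and 13.97 in IL6_KO and at 13.88, 14.10 and 14.14 in sgp130Fc. All groups overlapped, and it was the 1 member with a negative difference between IL6_KO and WT, -0.18 (95% interval -0.57 to 0.21). Between sgp130Fc and WT the difference was -0.01 (-0.40 to 0.38). Its probe was the brightest of all member probes, with 25 of 14141 tested probes brighter and raw intensities from 13967 to 19278, while the brightest probe of an array reached 16435 to 24800. How far the response of the array flattens at this intensity was not tested.

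**Figure D2:**
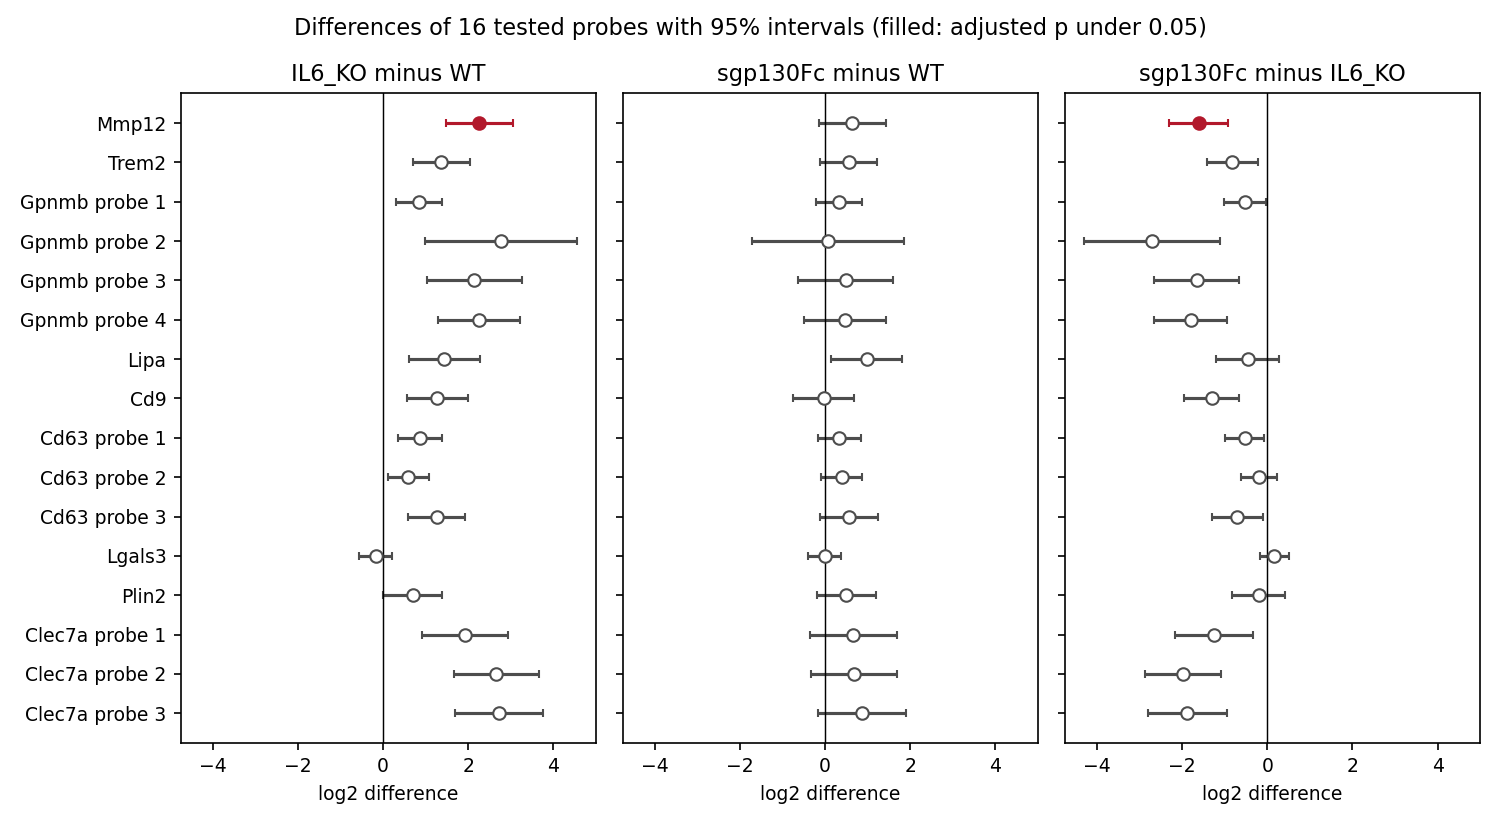
Log2 differences of the 16 tested member probes in the 3 comparisons with 95% intervals; probes of one gene are numbered from the brightest, and filled red points passed at an adjusted p under 0.05. Mmp12 passed in IL6_KO minus WT (2.26) and in sgp130Fc minus IL6_KO (-1.61), and the Lgals3 intervals include 0 in all 3 panels.

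Across all 16 tested probes, 15 were higher in IL6_KO than in WT (49.8% of genes were), 14 of them without overlap (18.9% of genes). Of the 16, 1 passed (0.248% of 14141 probes did). The 16 probes belong to 9 genes, so these counts are not independent. The differences between IL6_KO and WT ran from -0.18 to 2.76. Between sgp130Fc and WT they ran from -0.03 to 0.97, with 14 positive (49.2% of genes) and 0 passing (0.0919% of probes). Between sgp130Fc and IL6_KO they ran from -2.71 to 0.17. There 15 were negative (49.8% of genes), 12 of them without overlap (13% of genes), and 1 passed (1.27% of probes).

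The members other than Lgals3 varied together over the 8 arrays. IL6_KO replicate 2 held the highest level for 7 of the 9 genes and the lowest for Lgals3, and WT replicate 1 held the lowest level for 6. Over the 8 arrays the median Pearson correlation of the 36 pairs of genes was 0.77, and 28 pairs had a positive value. The 8 pairs with Lgals3 were all negative, from -0.84 with Cd9 to -0.47 with Lipa. The closest pair was Mmp12 and Cd63 (0.94), and among the rest Plin2 followed the others least (median 0.66). These are descriptions over 8 arrays that share 3 genotypes, so that a difference between genotypes is part of each value.

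General macrophage markers lay higher as well, on average by less than some members. The mean level of the 16 measured macrophage markers was 9.93 to 10.02 on the WT arrays, 10.52 to 11.02 in IL6_KO and 10.30 to 10.57 in sgp130Fc, which is 0.77 and 0.44 above WT on average. In IL6_KO all 16 had a positive difference from WT (49.8% of genes), 14 without overlap (18.9% of genes), and 0 passed. Their differences ran from 0.12 to 2.03, the largest above the brightest probe of every member but Mmp12. Between sgp130Fc and IL6_KO, 1 of the 16 passed, as lower in sgp130Fc (1.45% of genes passed in either direction). On each array the change of a member from its WT mean was set beside the change of the mean of the 16 markers. In IL6_KO, Mmp12 changed by 1.48 ± 0.29 more (SD, n = 3, log2), Clec7a by 1.14 ± 0.62, Lipa by 0.66 ± 0.26, Trem2 by 0.60 ± 0.14 and Cd9 by 0.50 ± 0.31, on every array in each case. Cd63, Gpnmb on its brightest probe and Plin2 moved about as much as the macrophage markers (0.09 ± 0.15, 0.07 ± 0.28 and -0.08 ± 0.12), and Lgals3 by -0.95 ± 0.42. For Gpnmb this holds for that probe only. Its other tested probes differed from WT by 2.76, 2.14 and 2.26 and were not set beside the markers. Relative to the markers, the WT arrays themselves spread by 0.70 (SD, n = 2) for Trem2, 0.82 for Plin2, 0.66 for Gpnmb and 0.41 for Cd9. They spread by 0.27 for Lipa, 0.18 for Mmp12 and 0.13 for Clec7a. For Cd9, WT replicate 2 lay at 0.29 on this scale, above IL6_KO replicate 3 at 0.27. For Trem2 these arrays lay at 0.50 and 0.51. In sgp130Fc, Lipa lay above the markers on every array (0.53 ± 0.45), Cd9 below on every array (-0.47 ± 0.40), and Mmp12 on both sides (0.20 ± 0.39). The Cd9 value leaned on replicate 3 (-0.93). Replicates 1 and 2 lay at -0.28 and -0.21, above WT replicate 1 at -0.29. These differences between genes were not tested.

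**Figure D3:**
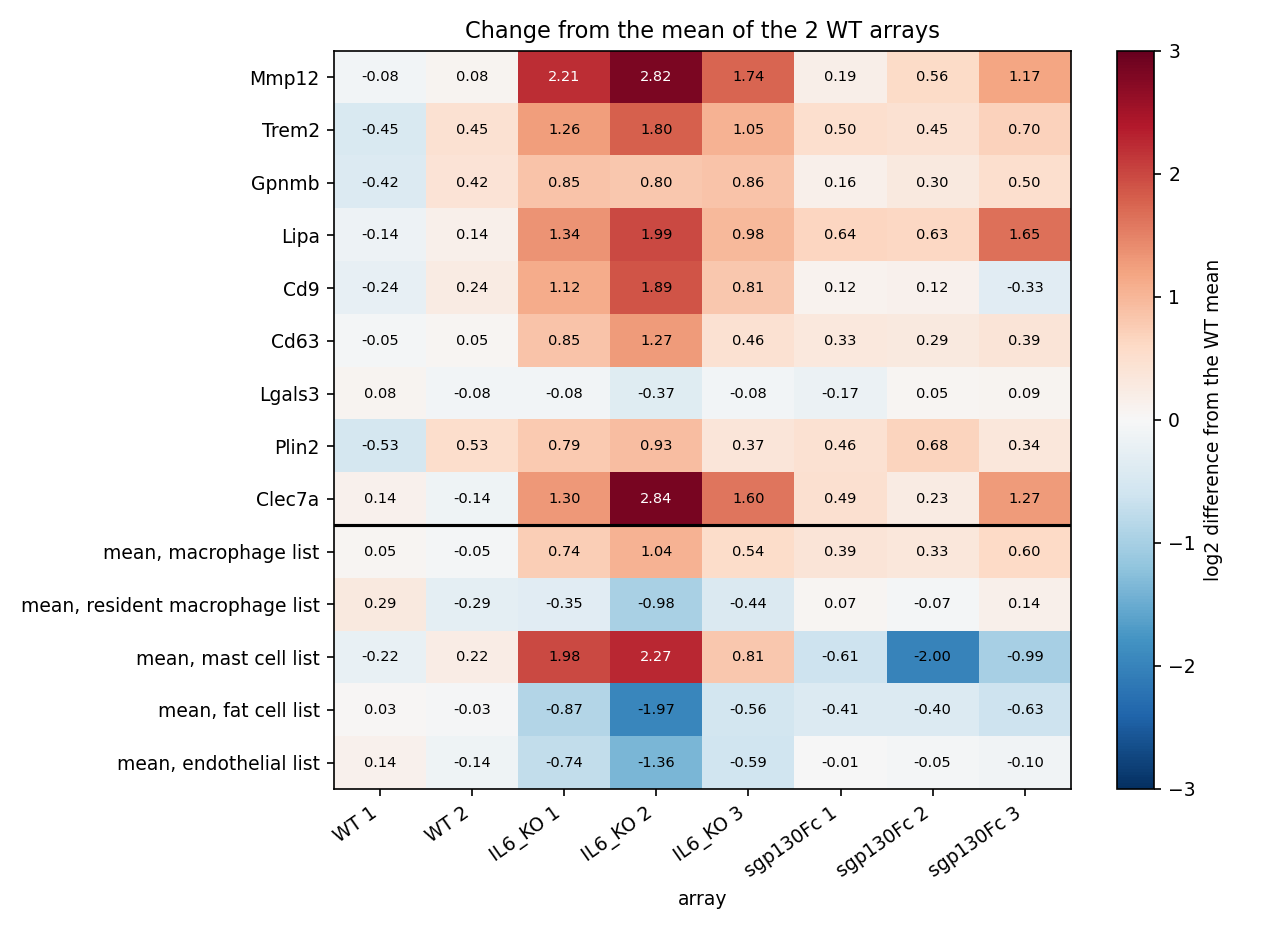
Change of each member (brightest tested probe) on each array from the mean of the 2 WT arrays, in log2 units, with the mean change of 5 marker lists below the line; red is higher and blue lower. The member rows other than Lgals3 are red on all 3 IL6_KO arrays. Except for Gpnmb, they are highest on replicate 2, where the fat cell mean is lowest at -1.97.

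Levels of other cell types moved with these results, and their part in them was not tested. All 14 measured fat cell markers lay below WT in IL6_KO (median -1.09), with a mean level of 10.87 to 10.93 in WT, 8.93 to 10.34 in IL6_KO and 10.27 to 10.50 in sgp130Fc. In that list 1 gene passed, the adipokine Retn (-1.94 ± 0.30, adjusted p = 0.0467). Without IL6_KO replicate 2 the median was -0.66, and 0 passed without that array or without either WT array. The 8 endothelial markers had a median of -0.85 in IL6_KO, or -0.58 without IL6_KO replicate 2, and of -0.06 in sgp130Fc.

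Mast cell markers followed the members in IL6_KO and departed from them in sgp130Fc. The mean of 4 measured markers lay at 7.32 to 7.76 in WT, at 8.35 to 9.81 in IL6_KO and at 5.54 to 6.93 in sgp130Fc. All 4, the proteases Cpa3, Mcpt4, Cma1 and Tpsb2, were lower in sgp130Fc than in IL6_KO, by -2.28 to -3.38 (adjusted p = 0.0177 to 0.0267), and 2 of them still passed without IL6_KO replicate 2. Neutrophil markers had a mean of 6.22 and 6.34 in WT and of 6.34, 9.24 and 6.24 in IL6_KO, where replicate 2 alone lay far above WT. Their median difference was 0.59, or 0.19 without that array. T and NK cell markers had 5.84 to 7.55 in WT and 5.44 to 7.14 in IL6_KO, and Cd4, Cd8a, Ncr1 and Gzma were above background on at most 1 array. B cell markers stayed near background, at 4.93 to 6.17 over all arrays, with Cd79a and Ms4a1 above background on at most 1 array. Fibroblast and mesothelial markers had positive medians in IL6_KO (0.53 over 8 genes and 0.65 over 6) with 0 passing, and the mesothelial median was 1.30 and 0.25 without WT replicates 1 and 2. The median of 2 monocyte markers was 0.50, or 0.07 without IL6_KO replicate 2 and 0.20 and 0.81 without WT replicates 1 and 2, with 0 passing. The median of 4 dendritic cell markers was -0.22, or 0.05 without WT replicate 1, with 0 passing. All 4 measured genes of red blood cells lay below WT in IL6_KO (median -2.84, range -3.95 to -1.28), and 2 passed. Without IL6_KO replicate 2, 1 passed, and without WT replicate 1 the median was -2.19. The mean of 3 genes of dividing cells was 6.85 to 7.41 in WT, 7.60 to 8.03 in IL6_KO and 7.47 to 7.70 in sgp130Fc.

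Markers of resident macrophages had a negative median. Of 12 measured, 4 had a positive and 8 a negative difference between IL6_KO and WT (median -0.45), and 0 passed. The median was -0.02 and -0.87 without WT replicates 1 and 2. Between sgp130Fc and WT 6 were positive and 6 negative (median -0.08), and 0 passed. Cd163, the haemoglobin scavenger receptor of resident macrophages, lay at 9.13 and 8.51 in WT, at 7.40, 6.49 and 8.05 in IL6_KO and at 9.96, 9.99 and 10.38 in sgp130Fc. The groups did not overlap, with IL6_KO lowest and sgp130Fc highest. Cd163 was higher in sgp130Fc than in IL6_KO by 2.80 ± 0.36 (adjusted p = 0.0110), and differed from WT by -1.50 in IL6_KO (adjusted p = 0.115). Cbr2 and Lyve1 also lay below WT in IL6_KO (-1.04 and -1.69), while Mrc1 lay above it (0.49) and Clec10a differed by 0.02.

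Other genes described for lipid-associated macrophages gave a mixed picture. Of 25 listed, 22 were tested. Of those, 18 had a positive difference in IL6_KO and 1 passed (median 0.66, range -0.47 to 2.11), against 16 and 0 in sgp130Fc (median 0.29). Without IL6_KO replicate 2 the IL6_KO median was 0.49. Ctsk, the collagen-degrading protease cathepsin K, rose by 1.88 ± 0.28 (adjusted p = 0.0467) and was lower in sgp130Fc than in IL6_KO (-1.37, adjusted p = 0.0385). Dcstamp, which macrophages need to fuse, lay 2.11 above WT in IL6_KO (adjusted p = 0.0777) and was lower in sgp130Fc than in IL6_KO by -2.42 ± 0.38 (adjusted p = 0.0243). In this list 0 genes passed against WT when either WT array was left out, and between sgp130Fc and IL6_KO 1 in place of 2 passed without IL6_KO replicate 2. Nceh1, a cholesteryl ester hydrolase, lay 1.17 and 0.68 above WT in the 2 genotypes (adjusted p = 0.0918 and 0.563). Npc2, which carries cholesterol out of lysosomes, differed by -0.14 in IL6_KO and 0.50 in sgp130Fc (adjusted p = 0.723 and 0.549). The probe of Fabp4, a fatty acid carrier abundant in fat cells, was above background on 2 arrays, both sgp130Fc, and gives no usable level here.

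Below the receptors, all 11 measured signalling genes of Trem2 and Clec7a had a positive difference in IL6_KO (median 0.72, or 0.41 without IL6_KO replicate 2), and 0 passed. Tyrobp, the adaptor of Trem2, lay at 10.15 and 10.59 in WT, at 11.46, 12.15 and 11.46 in IL6_KO and at 10.75, 10.64 and 10.96 in sgp130Fc. Its 3 groups kept the order of Mmp12 without overlap. It differed from WT by 1.32 in IL6_KO (adjusted p = 0.0693) and by 0.41 in sgp130Fc (adjusted p = 0.726). Syk, the kinase recruited by both receptors, differed by 0.79 and 0.46 (adjusted p = 0.115 and 0.625), and Malt1, which acts below dectin-1, by 0.91 and 0.62 (adjusted p = 0.125 and 0.581). In sgp130Fc 8 of the 11 were positive (median 0.15) and 0 passed.

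Transcription factors of the MiT/TFE family and lysosomal genes, taken as 1 list, gave smaller differences. All 11 measured were positive in IL6_KO (median 0.36) and 0 passed; without IL6_KO replicate 2 the median was 0.20 and 1 passed. Mitf differed by 1.38 (adjusted p = 0.0693), and Tfec, not above background in WT or sgp130Fc, was at least 1.27-fold higher in IL6_KO (adjusted p = 0.0823). The fold for Tfec is a lower bound, set against the lowest signal above background on the WT arrays. Spi1, which encodes the myeloid factor that binds GAGGAA, lay at 6.58 and 6.60 in WT, at 8.13, 8.06 and 7.46 in IL6_KO and at 6.79, 6.77 and 7.17 in sgp130Fc (1.29 and 0.32, adjusted p = 0.0644 and 0.763).

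In IL6_KO, the other genes of lipid handling, tetraspanins, and galectins with osteopontin receptors each held both directions, with medians near 0. In sgp130Fc 10 of 14, 8 of 10 and 9 of 10 of them were positive against WT (49.2% of all genes were). Their medians there were 0.19, 0.07 and 0.30, and 0 passed. Of 14 measured genes of lipid uptake, storage and efflux, 8 were positive in IL6_KO (median 0.07) and 0 passed. The median was -0.006 without IL6_KO replicate 2 and -0.10 without WT replicate 1. In this list Plin1 and Plin4, the perilipins of fat cells, differed by -1.43 and -1.06, and Plin3 by 0.42 (adjusted p = 0.159, 0.214 and 0.203). Of 10 other tetraspanins 7 were positive in IL6_KO (median 0.07) and 0 passed. The median was -0.015 without IL6_KO replicate 2 and -0.12 without WT replicate 1. The leukocyte tetraspanins Cd37 and Cd53 lay at 1.13 and 1.01 (adjusted p = 0.0954 and 0.120) and Cd151 at -0.65 (adjusted p = 0.164). Of 10 other galectins and osteopontin receptors 7 were positive (median 0.13, and 0.10 where dim genes take the value of their bound) and 0 passed, with Lgals1, another galectin of high level, at -0.47 (adjusted p = 0.206).

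Of 9 other metalloproteases and inhibitors 8 were positive in IL6_KO (median 0.83) and 0 passed. The median was 0.34, with 1 passing, without IL6_KO replicate 2 and 0.42 without WT replicate 1. In sgp130Fc 8 were positive as well (median 0.28) and 0 passed. The remaining gene, Mmp9, lay at -1.14 there (adjusted p = 0.520). The collagenase Mmp13 lay 2.16 above WT (adjusted p = 0.0529) and was lower in sgp130Fc than in IL6_KO by -1.64 (adjusted p = 0.0450). Timp3, an inhibitor of metalloproteases, was higher in sgp130Fc than in IL6_KO by 1.49 ± 0.24 (adjusted p = 0.0266) and differed from WT by -1.04 in IL6_KO (adjusted p = 0.115). The Timp3 call ended without IL6_KO replicate 2 and the Mmp13 call without either WT array, where 0 genes of the list passed in that direction.

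**Figure D4:**
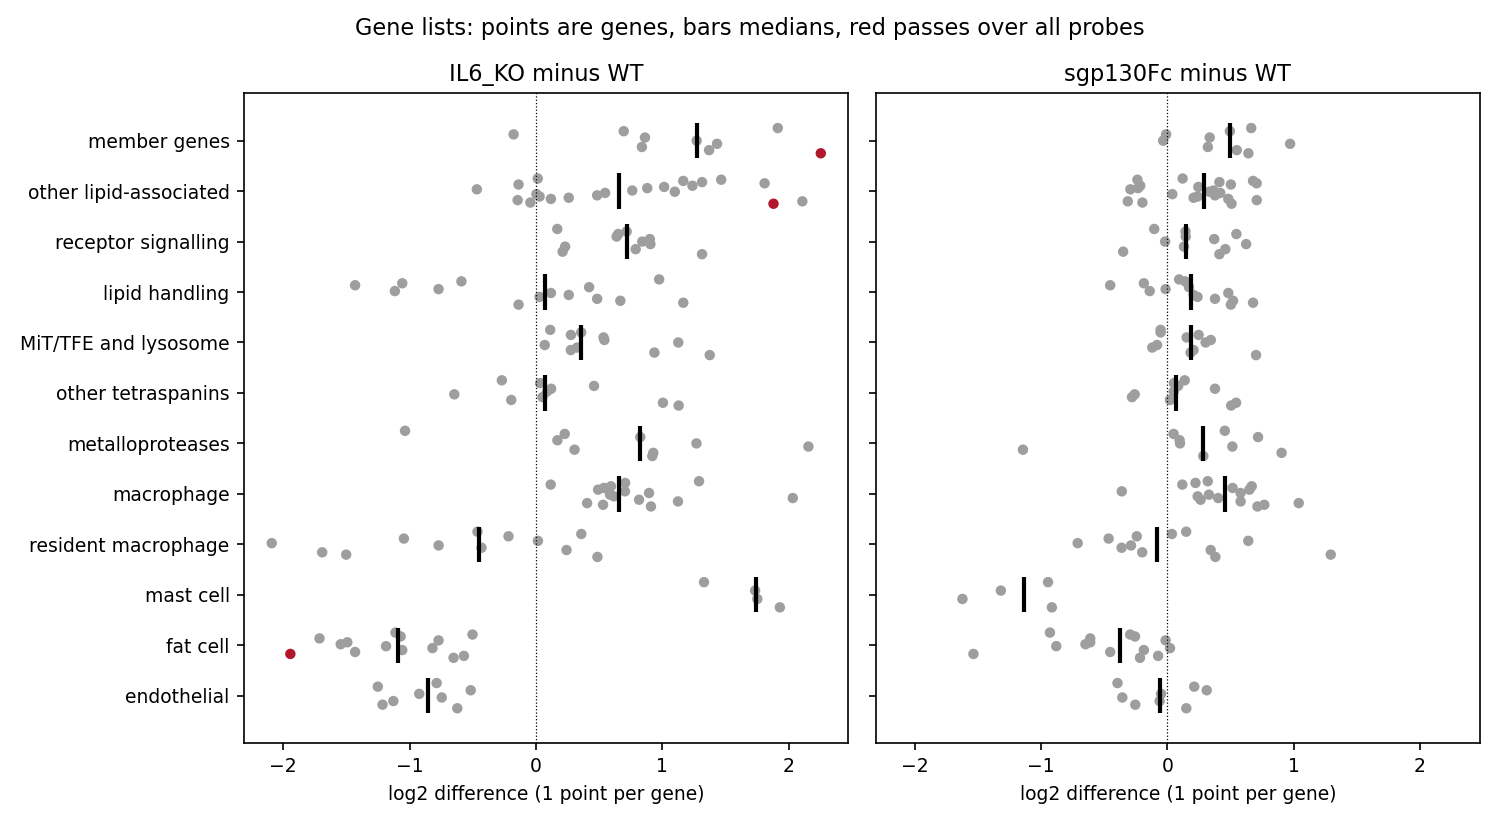
Log2 differences from WT of the genes of 12 lists (1 point per gene, brightest tested probe; black bars are list medians; red points passed over all probes) in IL6_KO and in sgp130Fc. In IL6_KO the member median lies at 1.27, the macrophage median at 0.66 and the fat cell median at -1.09; in sgp130Fc they lie at 0.49, 0.46 and -0.37.

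Outside the member list, the genes whose profile over the 8 arrays was most like the mean of the standardized member profiles were Aprt, Frk, Sh3bgrl3, Prss46 and Pik3cg (Pearson correlation 0.99 each). Aprt is an enzyme of purine salvage, Frk a tyrosine kinase, Prss46 a serine protease and Pik3cg the catalytic subunit of a leukocyte phosphoinositide kinase. Prss46 lay at 5.19 and 5.76 in WT, at 7.32, 7.93 and 7.03 in IL6_KO and at 6.21, 6.57 and 6.78 in sgp130Fc, and it rose in IL6_KO over WT (1.95, adjusted p = 0.0467). Its groups did not overlap. The 5 genes were picked by their likeness to the members on these same arrays, so group differences like those of the members come with the choice. The other 4 lay 0.79 to 1.00 above WT in IL6_KO and 0.35 to 0.45 in sgp130Fc, with 0 passing. Of 2 receptor chains of IL-6, Il6st lay at 9.64 to 9.91 over the 8 arrays and did not follow the order of the members. Il6ra lay at 5.16 to 6.18. Its means of 5.57 in WT, 5.58 in sgp130Fc and 5.82 in IL6_KO had that order, but all groups overlapped (IL6_KO against WT, adjusted p = 0.681).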

How the data were processed

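RNA from adipose tissue was measured on Illumina bead arrays, 1 sample per array, for 25697 probes. The deposited intensity values are linear and not normalized between arrays, and a detection p-value stands beside each, per the file headers. The authors also deposited normalized log2 values, and the submitters' processing notes name GenomeStudio and limma. Setting them against the intensities showed their scale: neqc gave values within 0.0548 of them, so genes were not centred, and each array's median was 5.04.

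Intensities were normalized anew with neqc (offset 16) in limma 3.58.1 (R 4.3.3). Probes whose detection p fell below 0.05 on 2 or more arrays (14141) entered lmFit and eBayes, with all 8 arrays and 3 groups in 1 model, two-sided, with Benjamini-Hochberg adjustment over all probes and a threshold of 0.05. The fit was checked on simulated data. Precision is limited by the few arrays: differences had a median SE of 0.214 where WT entered and of 0.191 for sgp130Fc minus IL6_KO. Errors are SD for levels and SE for differences.

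Probe genes came from the platform annotation: 23978 probes had 1 symbol, 0 several and 1719 none, and 23962 identifiers matched RefSeq genes. Promoter windows are RefSeq's, build GRCm38.p6. The member genes, 21 other lists and the rule for naming genes were chosen with earlier results of these data known. The rule picks, from each other list, the 3 genes of smallest p in each comparison with WT. It adds the 5 genes most like the members, Il6, its receptor chains, Adgre1 and Adipoq. Only some of the genes it picks from the other lists are named, so those named are a further selection. Other genes named (Plin1, Plin3, Plin4 and those said to be near background) and those passing between sgp130Fc and IL6_KO were picked after their values were seen. Alternatives are listed under the dependence on processing.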

Additional observations from a re-analysis of the deposited data

How the results depend on the processing

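Across 11 settings of processing and 8 fits that each left out 1 array, the median difference of the members kept its sign in all 3 comparisons. In IL6_KO minus WT, 35 probes and 1 member gene passed. Probes became 21 with no background correction, 9 with no detection filter, 13 with detection on all 8 arrays, 64 with an intensity trend, 268 with array weights and 5 with only the 2 groups compared. Member genes became 0 with no background correction, with 75th percentile scaling, with no detection filter, with detection on all 8 arrays and with only the 2 groups compared, and 2 with array weights and with the mean of the probes of a gene. With the replicate number as a block 12 probes and 0 member genes passed. Leaving out single arrays gave 6 to 778 probes, 0 to 6 member genes and medians of 0.92 to 1.51. The 6 came without IL6_KO replicate 3 and the 0 without each of the other 7 arrays. In sgp130Fc minus WT, 13 probes became 8 with no background correction, 22 with an offset of 50, 6 with no detection filter, 5 with detection on all 8 arrays, 20 with an intensity trend, 28 with array weights and 5 under the replicate block; 3 to 21 passed with single arrays left out, and the member median was 0.10 to 0.72. In sgp130Fc minus IL6_KO, 179 probes became 107 with no detection filter, 1730 with array weights and 79 under the replicate block, and 24 to 495 with single arrays left out. The 1 member gene became 0 with no background correction, 75th percentile scaling, no detection filter and only the 2 groups compared, 2 with an intensity trend, 6 with array weights, and 0 to 2 with single arrays left out. With the replicate block the 1 member was Cd9 (-1.31, adjusted p = 0.0486) in place of Mmp12. Members near 0 in sgp130Fc minus WT changed sign: Lgals3 was 0.0075 with 75th percentile scaling, and Cd9 was 0.066 with array weights and 0.16 under the block. With single arrays left out Lgals3 ranged from -0.088 to 0.070, Cd9 from -0.27 to 0.21, Gpnmb from -0.10 to 0.74 and Plin2 from -0.038 to 1.03. The replicate numbers were not taken as pairs, since deviations of same-numbered arrays correlated between -0.35 and 0.18. A left-out WT array leaves 1, assumed to vary like the other groups. The cause of these changes was not tested. Lgals3 and the brightest Gpnmb probe lie near the top of the scale, and whether this limits their differences was not tested.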
